A study of Mus musculus with 16 samples.

Results

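Skin of iK5-TERT mice taken 6 h after an injection is described here across all genes, as the earliest time after doxycycline was given to silence a Tert transgene. The arrays of 6 h, chosen by their titles, were 4 of the 16 arrays of the series: TERT-off replicates 1 and 2 and TERT-on replicates 1 and 2. iK5-TERT mice (K5tTA-tetop-TERT) carry 2 transgenes, so that a transactivator made under the keratin 5 promoter, in basal epidermis and the outer root sheath of the follicle, drives a Tert transgene until doxycycline silences it. All mice, of both cohorts, carried both transgenes, drank doxycycline (5 µg/ml) through development and were taken off it after birth. The study describes their follicles at day 60 as in the growth phase (anagen) that the transgene brings on. TERT-off mice were injected with doxycycline (8 µg per g body weight) and TERT-on mice with PBS as vehicle, and dorsal skin (3 cm2 per biopsy, fat layer removed) was taken at 0, 6, 12 and 24 h, with the 0 h biopsy obtained before the injection. The labels number 2 biological replicates in each group, and arrays of one cohort and number were taken as biopsies of 1 mouse. The study describes serial biopsies, but the labels do not tie a number to an animal. On that reading each cohort is 2 mice, and the skin of 6 h came from mice of both cohorts that had already given a biopsy at 0 h. No group received doxycycline without the transgenes, so an effect of the drug and an effect of losing Tert cannot be told apart here.

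TERT is the catalytic subunit of telomerase. In skin it can also push resting follicles into growth. In an anagen follicle, matrix cells at the base divide rapidly and feed the hair shaft and its inner root sheath, while Wnt and BMP signals and growth factors from the dermal papilla set the pace. Growing cells also need cholesterol, polyamines, nucleotides and new ribosomes, each made by a well-known set of genes. Enzymes that oxidise or conjugate alcohols, aldehydes, amines and drugs form a further set that skin expresses in fibroblasts, sebaceous glands and epidermis.

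Values are deposited intensities on a linear scale, compared as log2 with a floor at 7.72, the 20th percentile over all deposited values, to which lower ones were raised. A gene "passed" where limma's adjusted p was under 0.05, and a difference is TERT-off minus TERT-on on the log2 scale with its standard error (SE) from the fit, in which all 16 arrays shared 1 estimate of the spread. The median intensity was 32.9 to 36.3 on the 4 arrays of 6 h. Their ratio of 5′ to 3′ Gapdh signal, a sign of RNA quality, was 0.977 to 1.11. It was 0.0599 on the 0 h array of TERT-on replicate 1, so changes from 0 h in that mouse rest on an array that stands apart. Tert itself read 10.8 and 16.1 in the TERT-off mice and 40.4 and 29.2 in the TERT-on mice at 6 h. The cohorts did not overlap, as was so for 52.5% of genes with a value on all 4 arrays. The difference of −1.38 (SE 0.43) did not pass (adjusted p = 0.108), and Tert was below its own 0 h value in all 4 mice. Where this probe set lies relative to the transgene was not determined.

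At 6 h, 219 of 12580 genes passed (1.74%), 144 higher (1.14%) and 75 lower (0.596%) in TERT-off skin. At an unadjusted p under 0.05 there were 2955 genes. With each array centred on its median the split was 94 higher and 104 lower, so which direction held more genes turned on the scaling, although the median difference over all genes was 0.04. Among 12523 genes with a value on all 4 arrays, the cohorts did not overlap for 52.5%, with TERT-off above for 29.1% and below for 23.4%. A lack of overlap is thus common among all genes with 2 arrays against 2. Of the 144 higher genes, 110 differed at least 2-fold, as did 37 of the 75 lower genes.

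Both TERT-off mice differed in the same direction from the TERT-on mean for all 144 higher genes and for the 72 lower genes with a value on all 4 arrays, which is what the test selects for. TERT-off replicate 1 was further away: its median difference was 1.76 over the higher and −1.13 over the lower genes, against 1.16 and −0.79 in TERT-off replicate 2. The count depended on each mouse. With TERT-off replicate 1 left out 0 genes passed (1375 at an unadjusted p under 0.05), with TERT-on replicate 1 left out 0 (1088 unadjusted) and with TERT-on replicate 2 left out 1 (1808 unadjusted), a gene outside the 219. With TERT-off replicate 2 left out 1872 passed, among them 207 of the 218 that still had a value. All of the 219 genes that had a value kept their direction in these 4 fits. Every call of a gene at 6 h given below is thus one of all 4 mice together, lost when TERT-off replicate 1 or either TERT-on mouse is left out. Without the poor 0 h array of TERT-on replicate 1, 100 genes passed, 97 of them among the 219.

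Before the injection, at 0 h, 5 genes passed (0.0397%), namely Stfa3, Il1f6, Sdr16c5 and Chil1, higher, and Rab7b, lower in TERT-off mice. The 144 higher genes had a median difference of 0.20 at 0 h, against 1.46 at 6 h, and the 75 lower genes −0.13, against −0.99. Since the genes were chosen for their difference at 6 h, a smaller median at any other time follows from the choice. The number at 0 h was 1 without TERT-off replicate 1 and 139 without TERT-off replicate 2, 2 and 11 without TERT-on replicate 1 or 2, and 1 without the poor array.

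The change of each mouse from its own 0 h biopsy was in opposite directions in the 2 cohorts. The median change of the 144 higher genes was 0.83 and 0.61 in TERT-off replicates 1 and 2, against −0.48 and −0.29 in TERT-on replicates 1 and 2. The 75 lower genes gave −0.59 and −0.49 in the TERT-off mice, against 0.34 and 0.30 in TERT-on mice. Since the 6 h arrays chose the genes, this is a description. Opposite changes from 0 h follow in part from that choice. How much of the distance at 6 h lay in the TERT-on mice therefore cannot be read from them. For the test of that difference of changes, 0 of 12580 genes (0%) passed, with a smallest adjusted p of 0.191 and 1561 genes at an unadjusted p under 0.05. No single gene is therefore shown to have changed differently from 0 h in the 2 cohorts.

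**Figure D1:**
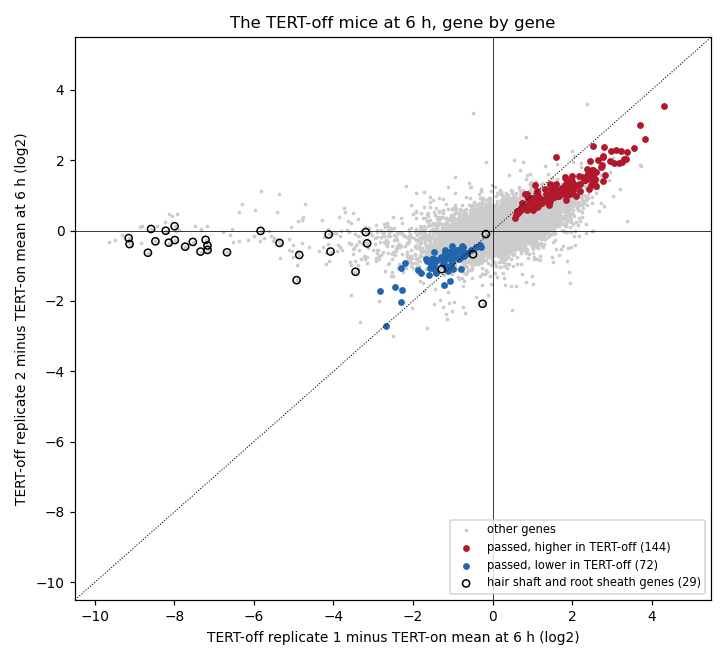
Difference of TERT-off replicate 1 (x axis) and TERT-off replicate 2 (y axis) from the mean of the TERT-on mice at 6 h, in log2 units, for 12523 genes with 4 values. Red and blue points are genes that passed (144 higher, 72 lower), black circles 29 genes of the hair shaft and root sheath, and the dotted line marks equal values. Medians of the called genes are 1.76 (higher) and −1.13 (lower) in replicate 1, against 1.16 and −0.79 in replicate 2. The test selects genes on which the replicates agree. The hair genes have a median of −7.17 in replicate 1 and −0.36 in replicate 2.

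The clearest difference between the TERT-off mice was in hair genes, and it was there before the injection. Averaged over 12 keratins of the hair shaft, log2 intensity at 6 h stood at 4.19 and 10.59 in the TERT-off mice, against 10.48 and 10.71 in TERT-on mice. The averages at 0 h were 4.33 and 10.73 for TERT-off skin, against 10.10 and 8.76 for TERT-on skin. TERT-off replicate 1 thus held almost no hair shaft keratin signal at either time and TERT-off replicate 2 was at the TERT-on level at 6 h and above it at 0 h. The study describes the follicles of both cohorts as in anagen, and the stage in TERT-off replicate 1 was not tested here. In whole skin, fewer cells of a type and less RNA per cell cannot be told apart. Krt31, a keratin of the hair cortex, had intensities of 8.80 and 2542 in the TERT-off mice, against 3072 and 3211 in TERT-on mice. Krt35 read 12.0 and 1784 in TERT-off, against 2215 and 2246 in TERT-on skin. None of the 12 passed at 6 h, with a median of −3.93 that was −0.11 without TERT-off replicate 1 and −6.69 without TERT-off replicate 2.

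The 18 genes of the inner root sheath and companion layer showed the same split, with means of 5.46 and 10.11 in the TERT-off mice, against 10.88 and 10.68 in TERT-on mice, and none passed (median −3.69, and −0.57 without TERT-off replicate 1). Krt25, a keratin of the sheath chosen here after its values were seen, read 46.9 and 5038 in TERT-off, against 6798 and 6717 in TERT-on skin. Melanocyte genes, which mark the pigment cells of growing follicles, had means of 5.80 and 8.29 in TERT-off, against 8.30 and 8.32 in TERT-on skin, and none of 12 passed. Msx2, a homeobox factor of the matrix, read 25.1 and 442 in TERT-off, against 625 and 604 in TERT-on skin. Genes of the interfollicular layers went both ways. The mean of 13 basal keratinocyte genes was 9.37 and 9.14 in the TERT-off mice, against 9.11 and 9.25 in TERT-on mice, and that of 25 suprabasal genes 9.69 and 9.68 in TERT-off, against 9.85 and 9.78 in TERT-on skin. Differences ran between −0.78 and 1.25 in the basal and between −2.31 and 1.32 in the suprabasal list, where 15 of 25 were negative. Krt5, a keratin of basal cells, read 3444 and 2435 in TERT-off, against 3678 and 4014 in TERT-on skin, and its partner Krt14 4206 and 3191 in TERT-off, against 4932 and 5004 in TERT-on skin. Both were lower on each TERT-off array, as were 23.4% of genes with a value on all 4 arrays, and did not pass (adjusted p = 0.163 and 0.083). In these lists Dst, a linker of hemidesmosomes to keratin filaments, was higher (2201 and 1445 in TERT-off, against 708 and 794 in TERT-on skin, adjusted p = 0.0441), as was Hrnr, a cornified envelope protein (1688 and 1361 in TERT-off, against 617 and 601 in TERT-on skin, adjusted p = 0.0273).

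By count, enzymes that handle alcohols, aldehydes, amines and foreign compounds had more members past the test than any other of the 44 lists. The cholesterol synthesis list, with 6 of 20, had a larger share. The lists were chosen with earlier results of these data known, so this order is a description. Of 31 measured genes of xenobiotic and amine metabolism, 8 passed as higher in TERT-off skin, against 1.14% of all genes, and 0 as lower. A positive difference was seen in 28, and the median was 1.00, against 0.04 over all genes. The median was −0.01 at 0 h. Without 1 mouse it ranged between 0.67 (TERT-off replicate 1 left out) and 1.44 (TERT-off replicate 2 left out).

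Cyp2e1, a cytochrome P450 that oxidises ethanol and other small molecules, had intensities of 2447 and 1419 in the TERT-off mice, against 68.4 and 218 in TERT-on mice at 6 h. This is the largest positive cohort difference at 6 h among genes that passed (3.93, SE 0.58, adjusted p = 0.0224). At 0 h it read 337 and 325 in TERT-off, against 157 and 354 in TERT-on skin, so the cohorts overlapped then, and its change from 0 h in TERT-off mice, 2.49, did not pass (adjusted p = 0.116).

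Inmt, which methylates indoleamines, read 1963 and 1204 in the TERT-off mice, against 154 and 148 in TERT-on mice (difference 3.35, SE 0.51, adjusted p = 0.0254). At 0 h it read 107 and 62.1 in TERT-off, against 186 and 68.7 in TERT-on skin, and the cohorts overlapped. Its rise from 0 h passed within the TERT-off mice (4.24, SE 0.50, adjusted p = 0.00628). The difference between the cohorts in the change did not pass (adjusted p = 0.191).

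Aldh1a1, which turns retinaldehyde into retinoic acid, read 1270 and 574 in TERT-off, against 89.1 and 165 in TERT-on skin (difference 2.82, SE 0.47). Adh1, an alcohol dehydrogenase that also oxidises retinol, read 1272 and 510 in TERT-off, against 102 and 171 in TERT-on skin. Aox3, an aldehyde oxidase, read 139 and 102 in TERT-off, against 19.8 and 19.7 in TERT-on skin. For these 3 genes the lower TERT-off array was at least 2-fold above the higher TERT-on array. The other members that passed, named after their values were seen, were the flavin monooxygenases Fmo2 (2.45) and Fmo1 (1.49) and the alcohol dehydrogenase Adh7 (1.88).

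Some members near the threshold did not pass. The phenobarbital-responsive Cyp2b10 read 442 and 228 in TERT-off, against 132 and 130 in TERT-on skin (adjusted p = 0.0566), and the glutathione transferase Gsta3 249 and 126 in TERT-off, against 19.1 and 47.9 in TERT-on skin (adjusted p = 0.0503). The 3 members with a negative difference were Cyp1a1 (−0.89) and Nqo1 (−0.21), both targets of the aryl hydrocarbon receptor, and the retinaldehyde dehydrogenase Aldh1a3 (−0.76), and none of these passed.

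**Figure D2:**
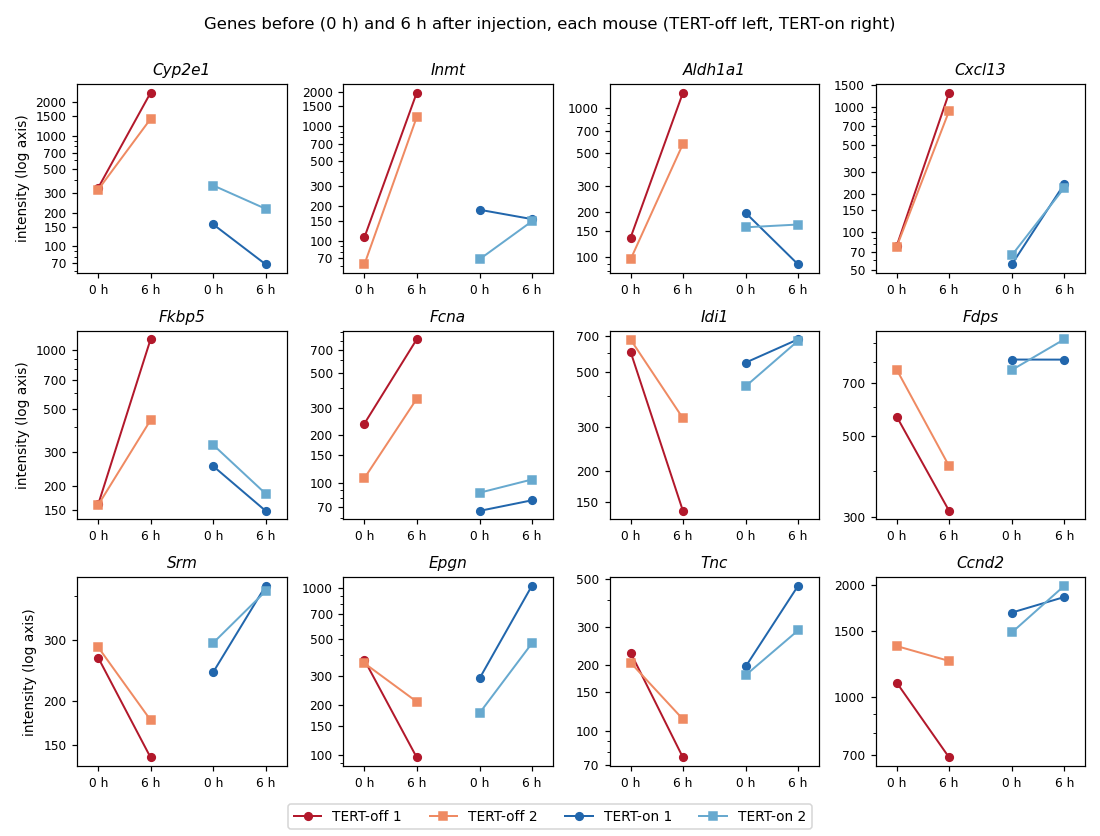
Intensity (log axis) of 12 genes at 0 h and 6 h, with 1 line per mouse and the TERT-off mice on the left of each panel. Cyp2e1, Inmt, Aldh1a1, Cxcl13, Fkbp5 and Fcna end higher in both TERT-off mice than in both TERT-on mice, and Idi1, Fdps, Srm, Epgn, Tnc and Ccnd2 end lower.

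Genes of cholesterol synthesis had lower values in TERT-off skin. This pathway turns acetyl-CoA through mevalonate and farnesyl diphosphate into sterols, and its genes are switched on together by SREBP-2, which works with the CCAAT-binding factor NF-Y at many of their promoters. Of 20 measured genes 6 passed, all lower, against 0.596% of all genes, and 20 of 20 had a negative difference. The median was −0.65, against 0.04 over all genes, and 0.23 at 0 h. It ranged between −0.49 and −0.81 with 1 mouse left out. The median change from 0 h was −0.55 and −0.53 in the TERT-off mice, against 0.19 and 0.44 in TERT-on mice, and here both TERT-off mice differed from their 0 h value by nearly the same amount.

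The promoters of the members that passed and have a sequence are shown because they hold the CCAAT box. Each is the 250 bases before the gene's start, 5′ to 3′ on the gene's strand, from RefSeq on GRCm38.p6, with CCAAT or its complement ATTGG in capitals. Idi1 lies at chr13:8885356-8885605 on the plus strand, Lss at chr10:76531355-76531604 on the plus strand and Cyp51 at chr5:4104698-4104947 on the minus strand.
Idi1: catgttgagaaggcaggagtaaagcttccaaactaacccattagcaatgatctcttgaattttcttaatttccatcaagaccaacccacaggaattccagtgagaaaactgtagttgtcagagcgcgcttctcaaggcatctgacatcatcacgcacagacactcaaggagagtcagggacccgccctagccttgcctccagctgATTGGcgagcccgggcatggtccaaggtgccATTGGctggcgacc
Lss: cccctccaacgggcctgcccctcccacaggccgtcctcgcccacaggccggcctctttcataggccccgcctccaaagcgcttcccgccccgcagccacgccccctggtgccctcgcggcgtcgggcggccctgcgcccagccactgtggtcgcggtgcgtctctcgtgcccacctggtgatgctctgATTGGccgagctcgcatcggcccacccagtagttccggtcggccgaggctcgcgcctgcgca
Cyp51: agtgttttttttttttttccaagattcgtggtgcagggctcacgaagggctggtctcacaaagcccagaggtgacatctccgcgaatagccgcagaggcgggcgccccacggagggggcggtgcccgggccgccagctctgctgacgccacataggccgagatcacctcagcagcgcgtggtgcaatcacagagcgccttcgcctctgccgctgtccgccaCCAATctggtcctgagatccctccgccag
Idi1 holds 2 matches and the others 1 each. The match nearest to the start began 14 bases upstream of it in Idi1, 62 in Lss and 29 in Cyp51. Of the 20 measured genes 16 had a window in the RefSeq table, and 16 of 16 held CCAAT on either strand, against 37.5% of all 27025 genes with a window. Among 24 ribosome assembly and nucleotide synthesis genes it was 5, and among 23 xenobiotic genes 12. A match is a description of the letters only.

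Idi1, which isomerises isopentenyl diphosphate, had intensities of 138 and 326 in the TERT-off mice, against 680 and 670 in TERT-on mice at 6 h (difference −1.67, SE 0.30, adjusted p = 0.0336). At 0 h the order was the reverse, with 605 and 678 in TERT-off, against 547 and 439 in TERT-on skin. Its fall from 0 h passed within the TERT-off mice (−1.60, SE 0.29, adjusted p = 0.0467). The difference between the cohorts in the change did not pass (adjusted p = 0.213). A further probe set of Idi1 had a difference of −1.70 (adjusted p = 0.0379).

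Fdps, which makes farnesyl diphosphate, read 311 and 413 in TERT-off, against 810 and 921 in TERT-on skin (difference −1.27, SE 0.18, adjusted p = 0.0176). Lss, which closes the sterol rings, read 50.8 and 91.8 in TERT-off, against 151 and 172 in TERT-on skin (difference −1.24, SE 0.27, adjusted p = 0.0495). In both genes the higher TERT-off array was below the lower TERT-on array, as was so for 23.4% of genes with a value on all 4 arrays. The other members that passed were Fdft1 (−0.90), Cyp51 (−0.87) and Sqle (−0.86), which act between farnesyl diphosphate and the first sterols and were named after their values were seen. Hmgcs1, at the head of the pathway, had a difference of −0.64 that did not pass (adjusted p = 0.0671), and Insig1, a target and brake of the same system, −1.05 (adjusted p = 0.211).

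Genes of ribosome assembly and of nucleotide and polyamine synthesis, many of which are known Myc targets, had lower values as well. Of 30 measured genes 5 passed, all lower, against 0.596% of all genes, and 28 had a negative difference. The median was −0.81 at 6 h and 0.01 at 0 h. Without TERT-off replicate 1 it was −0.35 and without TERT-off replicate 2 −1.16, so TERT-off replicate 1 carried the larger part of it. The median change from 0 h was −0.69 and −0.13 in the TERT-off mice, against 0.30 and 0.38 in TERT-on mice. Srm, spermidine synthase, read 138 and 177 in the TERT-off mice, against 428 and 414 in TERT-on mice (difference −1.43, SE 0.18, adjusted p = 0.0176), with 267 and 286 in TERT-off, against 243 and 294 in TERT-on skin, at 0 h. Its change from 0 h was −0.82 in TERT-off mice and 0.65 in TERT-on mice, and neither passed. Rrp12, a ribosome export factor, read 48.0 and 56.3 in TERT-off, against 140 and 120 in TERT-on skin (difference −1.32, SE 0.20). Odc1, the first enzyme of polyamine synthesis, read 503 and 824 in TERT-off, against 1470 and 1398 in TERT-on skin (difference −1.16, SE 0.25, adjusted p = 0.0454). Rrp9 (−1.10) and Nop2 (−0.99) also passed.

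Of the Myc, Max and Mad family 0 of 12 passed and the median was 0.09. The E-box CACGTG (identical on both strands), which Myc and Max can bind, stood in 3 of 24 promoters of the ribosome assembly and nucleotide synthesis list, in 4 of 16 of the cholesterol list and in 0 of 23 of the xenobiotic list, against 6.86% of all genes with a window. Outside these lists, Bysl, which serves small-subunit assembly, read 71.9 and 91.2 in TERT-off, against 203 and 191 in TERT-on skin (difference −1.28), and Uck2, a kinase of pyrimidine salvage, 109 and 182 in TERT-off, against 390 and 405 in TERT-on skin (difference −1.50). Both were among the 15 largest negative differences with 4 values. Gar1, a protein of the small nucleolar and telomerase RNA particles, was the 1 gene of 12 in the telomerase and shelterin list that passed, against 1.74% of all genes. It read 168 and 237 in TERT-off, against 395 and 422 in TERT-on skin (difference −1.03, SE 0.18).

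**Figure D3:**
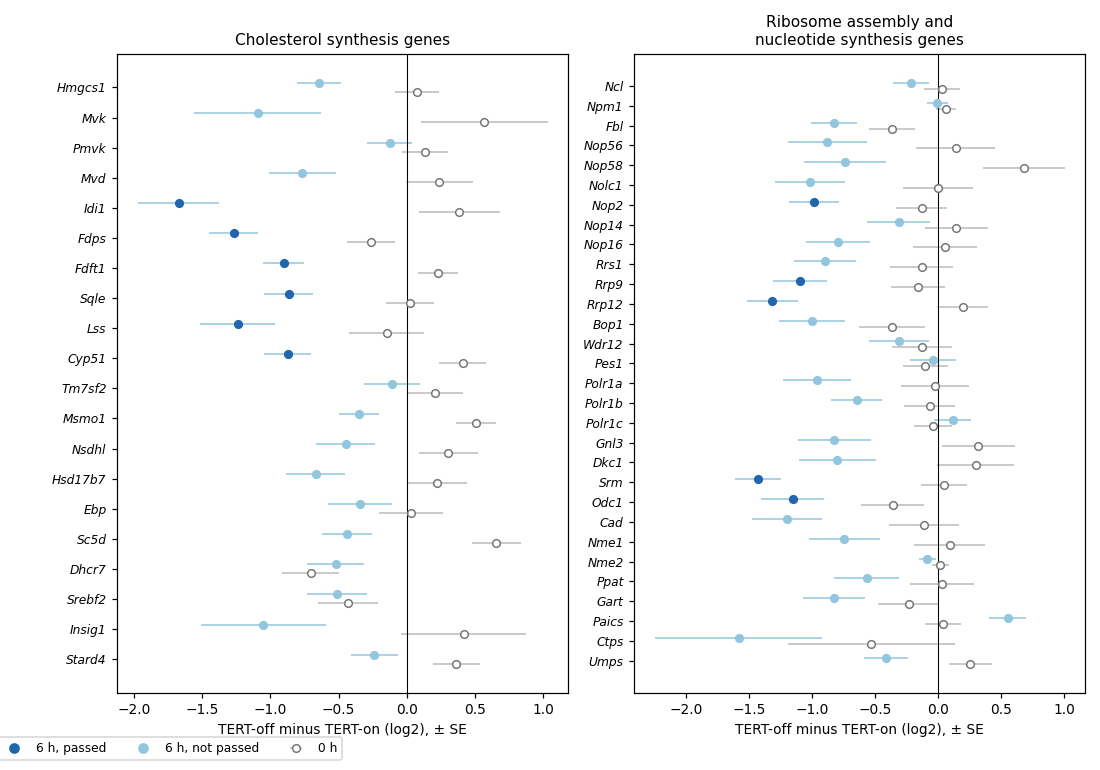
TERT-off minus TERT-on in log2 units (± SE, 2 mice in each cohort) at 6 h (filled) and 0 h (open) for 20 genes of cholesterol synthesis and 30 genes of ribosome assembly and nucleotide synthesis; dark points passed. The 6 h points lie left of zero for 20 and 28 genes, with medians of −0.65 and −0.81. The 0 h points have medians of 0.23 and 0.01.

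Some genes of protein folding were lower. In the list of heat shock and unfolded protein genes 2 of 21 passed, both lower, and 18 had a negative difference (median −0.33). Over all genes 1.14% passed as higher and 0.596% as lower. Creld2 and Manf, secreted proteins of the endoplasmic reticulum stress response, read 203 and 218 in TERT-off, against 363 and 372 in TERT-on skin, and 400.5 and 552 in TERT-off, against 839 and 844 in TERT-on skin. Both fell from 0 h within the TERT-off mice past the test (−1.02 and −1.11) and hardly moved in the TERT-on mice (0.00499 and −0.01). The difference between the cohorts in this change did not pass for either gene (adjusted p = 0.233 and 0.225). In the integrated stress response list 1 gene was higher and 1 lower of 18: Nupr1, a stress-induced chromatin protein, at 1.13, and Mthfd2, the mitochondrial folate enzyme, at −1.09.

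A pair of glucocorticoid-responsive genes was higher. Of 26 measured genes 2 passed, both higher, against 1.14% of all genes. A positive difference was seen in 21, and the median was 0.40, against −0.18 at 0 h. It was 0.28 without TERT-off replicate 1 and 0.64 without TERT-on replicate 2. Fkbp5, a cochaperone that dampens the glucocorticoid receptor, read 1134 and 436 in the TERT-off mice, against 149 and 183 in TERT-on mice (difference 2.09, SE 0.36, adjusted p = 0.0274). At 0 h it read 161 and 160 in TERT-off, against 253 and 325 in TERT-on skin, the reverse order. The difference between the cohorts in its change from 0 h did not pass (adjusted p = 0.191). Il1r2, the decoy receptor of interleukin-1, read 1956 and 1293 in TERT-off, against 475 and 505 in TERT-on skin (adjusted p = 0.0274). Zbtb16 (623 and 153 in TERT-off, against 64.4 and 71.0 in TERT-on skin) and Tsc22d3 (1544 and 709 in TERT-off, against 247 and 372 in TERT-on skin), classical targets of the receptor named after their values were seen, had differences of 2.19 and 1.79 that did not pass (adjusted p = 0.0647 and 0.0783). For Pdk4 the array of TERT-off replicate 1 has no value, and it did not pass (adjusted p = 0.123). In the circadian clock list 0 of 18 passed (median 0.27, and 0.54 without TERT-on replicate 2 or 0.16 without TERT-off replicate 1 or TERT-on replicate 1), with Npas2 at 23.3 and 27.3 in TERT-off, against 6.19 and 10.1 in TERT-on skin.

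Most genes of the macrophage, mast cell and neutrophil lists had positive differences at 6 h, and the counts that passed are read against 1.74% of all genes. The medians of these 3 lists were positive at 0 h too. Of 21 macrophage and monocyte genes 1 passed and 20 had a positive difference, with a median of 1.17, against 0.84 at 0 h. Their mean log2 intensity was 9.21 and 8.19 in the TERT-off mice, against 7.71 and 7.62 in TERT-on mice, so TERT-off replicate 1 stood apart, and without it the median was 0.60. Fcna, ficolin A of macrophages, read 814 and 341 in TERT-off, against 77.2 and 105 in TERT-on skin (difference 2.55, SE 0.41, adjusted p = 0.0273), with 237 and 107 in TERT-off, against 66.1 and 86.3 in TERT-on skin, at 0 h. In mast cell genes 1 of 10 passed (median 1.18, against 0.85 at 0 h, and 0.65 without TERT-off replicate 1): Cpa3, the mast cell carboxypeptidase, read 1071 and 575 in TERT-off, against 182 and 247 in TERT-on skin. In neutrophil genes 2 of 12 passed, Stfa3 and Il1r2, with a median of 0.99 that was 1.53 and 0.53 without TERT-on replicate 1 or 2. Il1r2 is counted in the glucocorticoid-responsive list as well. Stfa3 was closer between the cohorts at 6 h (0.97) than at 0 h (2.23).

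Among 33 chemokines, interleukins and their receptors 4 passed, all higher, against 1.14% of all genes (median 0.34, against 0.45 at 0 h, and −0.02 without TERT-off replicate 1). Cxcl13, which attracts B cells, read 1291 and 926 in the TERT-off mice, against 242 and 226 in TERT-on mice (difference 2.22, SE 0.22, adjusted p = 0.0176). It had read 78.3 and 77.0 in TERT-off, against 55.6 and 65.7 in TERT-on skin, at 0 h. It rose past the test in both cohorts, by 3.82 in the TERT-off cohort (adjusted p = 3.73e-05) and by 1.95 in the TERT-on cohort (adjusted p = 0.0105). Il22ra2, a soluble inhibitor of interleukin-22, read 371 and 208 in TERT-off, against 46.8 and 39.1 in TERT-on skin, and Il6ra, the interleukin-6 receptor, 660 and 278 in TERT-off, against 111 and 136 in TERT-on skin. The 14 complement genes all had a positive difference (median 0.98, against 0.53 at 0 h, and 0.53 without TERT-off replicate 1), and 0 passed. The 21 interferon-stimulated genes were all positive too (median 0.82, against 0.32 at 0 h, and 0.38 without TERT-off replicate 1 or 1.26 without TERT-off replicate 2), and 0 passed.

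Genes of dermal cells had positive differences, with 2 of 21 collagen and fibroblast genes past the test and a positive difference in 21 (median 0.80, against 0.19 at 0 h, and 0.47 without TERT-off replicate 1). Over all genes 1.14% passed as higher. Lox, which cross-links collagen, read 1355 and 763 in TERT-off, against 219 and 249 in TERT-on skin (difference 2.12, SE 0.30, adjusted p = 0.0176). Its rise from 0 h passed within the TERT-off mice (1.73), and the difference between the cohorts in the change did not (adjusted p = 0.312). Lum, a collagen-binding proteoglycan, read 3359 and 2186 in TERT-off, against 796 and 1302 in TERT-on skin (adjusted p = 0.0448). Of 18 endothelial genes 1 passed (median 0.36, and 0.04 without TERT-off replicate 1 or 0.01 without TERT-on replicate 1): Lyve1, a hyaluronan receptor of lymph vessels and some macrophages, at 1476 and 678 in TERT-off, against 137 and 230 in TERT-on skin (difference 2.49, adjusted p = 0.0379). Tissue content differed between biopsies in other lists. The mean of 18 skeletal muscle genes was 11.16 and 10.22 in the TERT-off mice, against 9.89 and 10.71 in TERT-on mice, and that of 15 adipocyte genes 9.57 and 9.13 in TERT-off, against 8.82 and 9.14 in TERT-on skin, with 0 passing in either list. The part of these cell-content differences in the higher genes was not tested.

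**Figure D4:**
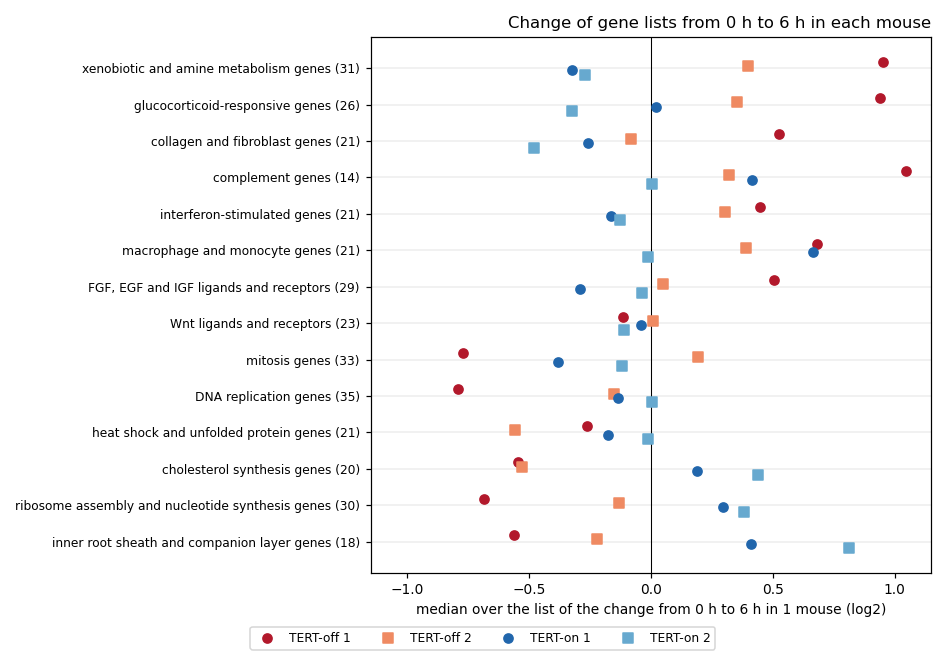
Median over each gene list of the log2 change from 0 h to 6 h in 1 mouse, with the number of measured genes in brackets; circles are replicate 1 and squares replicate 2. The TERT-off mice lie above the TERT-on mice for xenobiotic genes (0.95 and 0.40 in TERT-off, against −0.32 and −0.27 in TERT-on skin) and below them for cholesterol synthesis genes (−0.55 and −0.53 in TERT-off, against 0.19 and 0.44 in TERT-on skin).

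Of the signalling pathways of hair growth, the Wnt ligands and receptors held genes that passed. Of 23 measured 2 were lower, against 0.596% of all genes (median −0.22, against −0.33 at 0 h, and −0.02 without TERT-off replicate 1). Wnt10a, a ligand of the epidermis and hair matrix, read 79.1 and 102 in the TERT-off mice, against 168 and 206 in TERT-on mice (difference −1.05, SE 0.18, adjusted p = 0.0303), and had been level at 0 h (168 and 177 in TERT-off, against 179 and 158 in TERT-on skin). Wnt4, a ligand of the basal epidermis, read 205 and 243 in TERT-off, against 445 and 388 in TERT-on skin (difference −0.90, SE 0.17, adjusted p = 0.0379). Wnt5a read 43.8 and 214 in TERT-off, against 250 and 202 in TERT-on skin, and Wnt11 34.0 and 98.8 in TERT-off, against 123 and 112 in TERT-on skin, both low in TERT-off replicate 1 alone. Lef1, the factor that joins β-catenin on Wnt targets, read 192 and 267 in TERT-off, against 248 and 288 in TERT-on skin, and did not pass (adjusted p = 0.612). Of the Wnt signal transducers and antagonists (24 genes), the BMP and TGF-β pathway (26), the Shh pathway (12) and the Notch pathway (17), 0 genes passed, and their medians lay between −0.20 and −0.06. With 1 mouse left out they lay between −0.72 and 0.30, both in the Shh pathway, without TERT-off replicate 2 and 1. Bambi, a decoy receptor for BMP, read 49.9 and 694 in TERT-off, against 783 and 629 in TERT-on skin, and Smad7, an inhibitory Smad, 40.6 and 99.8 in TERT-off, against 130 and 151 in TERT-on skin. Fgf5, which ends anagen, read 2.43 and 73.9 in TERT-off, against 184 and 96.7 in TERT-on skin. Boc, a Shh co-receptor, read 153 and 121 in TERT-off, against 98.9 and 99.9 in TERT-on skin, and Dll1, a Notch ligand, 329 and 280 in TERT-off, against 194 and 215 in TERT-on skin.

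In a list of 23 genes that the study names, Tert and genes it reports as activated by TERT, 1 passed at 6 h. Of further genes that the study names outside this list, Cyp2e1, Il1r2 and Il22ra2 passed, all higher, and Krt5 and Krt14 did not. The share that passed among all such genes was not counted. Ccnd2, cyclin D2, read 688 and 1248 in the TERT-off mice, against 1853 and 1986 in TERT-on mice (difference −1.05, SE 0.22, adjusted p = 0.0441), with 1091 and 1369 in TERT-off, against 1684 and 1489 in TERT-on skin, at 0 h. Its 6 other probe sets had differences between −1.48 and −0.69, and none of these passed. The list was chosen in the study on these samples and is no independent evidence of its direction. Its median was −1.38, and −0.21 without TERT-off replicate 1.

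Cell cycle genes passed about as seldom as all genes did (1.74%), with Ccnd2 as the 1 of 22 in the list of D cyclins and CDK regulators (median −0.30). Of 35 DNA replication genes 1 passed, Ung, which removes uracil from DNA, at 28.7 and 69.6 in TERT-off, against 114 and 153 in TERT-on skin (adjusted p = 0.0417). The median was −0.40, and −0.11 without TERT-off replicate 1. Of 33 mitosis genes 0 passed (median −0.16, and 0.28 without TERT-off replicate 1), with a median change from 0 h of −0.77 and 0.19 in TERT-off replicates 1 and 2, against −0.38 and −0.12 in TERT-on mice. Receptors and ligands of the FGF, EGF and IGF families had 1 of 29 past the test, Fgfr1, higher at 470 and 337 in TERT-off, against 135 and 176 in TERT-on skin (adjusted p = 0.0379). Epgn, an EGF receptor ligand of keratinocytes outside that list, read 97.3 and 209 in TERT-off, against 1032 and 467 in TERT-on skin (difference −2.28, SE 0.42, adjusted p = 0.0379). At 0 h it read 372 and 356 in TERT-off, against 288 and 179 in TERT-on skin. Its change from 0 h was −1.35 in TERT-off mice and 1.61 in TERT-on mice, and neither passed.

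The other large positive differences between the cohorts at 6 h were mostly of genes in no list. Galnt15, which starts mucin-type glycosylation, read 470 and 203 in the TERT-off mice, against 33.0 and 48.7 in TERT-on mice. Its rise passed within TERT-off mice (3.47), and the difference between the cohorts in the change did not (adjusted p = 0.191). Depp1, a regulator of autophagy induced by FoxO factors, read 303 and 122 in TERT-off, against 30.9 and 28.7 in TERT-on skin. Akr1c14, a hydroxysteroid dehydrogenase, read 697 and 290 in TERT-off, against 47.0 and 106 in TERT-on skin. Clec2d, a ligand of lectin-like receptors on natural killer cells, read 1383 and 842 in TERT-off, against 192 and 159 in TERT-on skin, and the cohorts did not overlap at 0 h (685 and 623 in TERT-off, against 113 and 262 in TERT-on skin). Igsf6, a myeloid cell surface protein, read 148 and 64.3 in TERT-off, against 6.98 and 14.2 in TERT-on skin, and Calml4, a calmodulin-like protein, 493 and 247 in TERT-off, against 52.3 and 75.8 in TERT-on skin. For Igsf6 the TERT-on array at 6.98 lies under the floor, which makes its difference of 3.22 a lower bound. Ear3, an eosinophil-associated ribonuclease, read 712 and 362 in TERT-off, against 94.9 and 59.8 in TERT-on skin, but belongs to a family of near-identical genes that the probes may not part.

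Among the large negative differences between the cohorts at 6 h, Tnc, the matrix protein tenascin C, read 75.5 and 113 in the TERT-off mice, against 463 and 289 in TERT-on mice (difference −1.98, SE 0.32, adjusted p = 0.0274). Syt4, a synaptotagmin, read 7.88 and 5.30 in TERT-off, against 53.6 and 47.3 in TERT-on skin, and its 5.30 lies under the floor. Rab7b, a GTPase of endosomes, read 120 and 95.8 in TERT-off, against 283 and 278 in TERT-on skin, with 56.3 and 103 in TERT-off, against 284 and 303 in TERT-on skin, at 0 h. Its difference of −1.94 at 0 h (adjusted p = 0.0369) was thus present before the injection, and was −1.39 at 6 h. Ccdc25 (12.8 and 23.1 in TERT-off, against 63.6 and 78.1 in TERT-on skin), Ydjc (28.2 and 42.5 in TERT-off, against 95.1 and 100.1 in TERT-on skin) and Tuba8, an alpha-tubulin (134 and 193 in TERT-off, against 452 and 353 in TERT-on skin), were further members of the 15 largest negative differences.

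Within the TERT-off mice 38 genes (0.302%) had changed from 0 h, 20 higher and 18 lower, and within the TERT-on mice 3 (0.0238%), namely Tert, Spred1 and Cxcl13. Tert fell by 3.86 (SE 0.41, adjusted p = 0.00541) in TERT-off mice, and it fell by 3.02 (SE 0.41, adjusted p = 0.0297) in TERT-on mice. Spred1, an inhibitor of Ras signalling, fell by 1.83 and 1.95, with 311 and 437 left at 6 h in the TERT-off mice, against 527 and 412 in TERT-on mice. These falls were shared by mice with and without doxycycline. In TERT-off mice Cirbp, a cold-inducible RNA-binding protein, rose by 2.12 and stood at 521 and 386 at 6 h, against 173 and 232 in TERT-on mice. The difference between the cohorts in its change did not pass (adjusted p = 0.288). The count within TERT-off mice was 2 and 22 without TERT-off replicate 1 or 2 and 3 without either TERT-on mouse. Within TERT-on mice it was 0 without TERT-off replicate 1, TERT-off replicate 2 or TERT-on replicate 1 (1887, 1887 and 256 at an unadjusted p under 0.05), 9 without TERT-on replicate 2 and 0 without the poor 0 h array (1182 unadjusted).

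The cohort difference at 6 h was set against the mean of those at 12 and 24 h. Of 12580 genes 2 passed (0.0159%). Il1b, interleukin-1β, read 60.6 and 40.8 in the TERT-off mice, against 109 and 68.6 in TERT-on mice at 6 h. At 24 h it read 532 and 409 in TERT-off, against 55.2 and 60.3 in TERT-on skin, so the order of the cohorts turned round (6 h minus later times −3.04, SE 0.35, adjusted p = 0.0257). Pdpn, podoplanin of lymph vessels and activated keratinocytes, read 518 and 456 in TERT-off, against 648 and 609 in TERT-on skin at 6 h, and 1124 and 1040 in TERT-off, against 657 and 628 in TERT-on skin at 12 h (−1.83, SE 0.20, adjusted p = 0.0257). At 24 h TERT-off replicate 1 has no value for it and TERT-off replicate 2 read 2017, against 473 and 443 in TERT-on mice. Tnc and Epgn, which did not pass this test, had differences of −1.98 and −2.28 at 6 h and of 2.54 and 1.88 at 24 h, the value of Tnc at 24 h resting on TERT-off replicate 2 alone. Il1b passed without TERT-off replicate 1 (−3.32) and not without TERT-off replicate 2 (−2.77), TERT-on replicate 1 (−2.73) or TERT-on replicate 2 (−3.35), and Pdpn passed in none of the 3 fits without 1 mouse that could test it. The 144 higher genes of 6 h had medians of 1.16 at 12 h and 0.58 at 24 h, and the 75 lower genes −0.54 and −0.12, in the same mice, where smaller values follow from the choice of genes at 6 h.

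**Figure D5:**
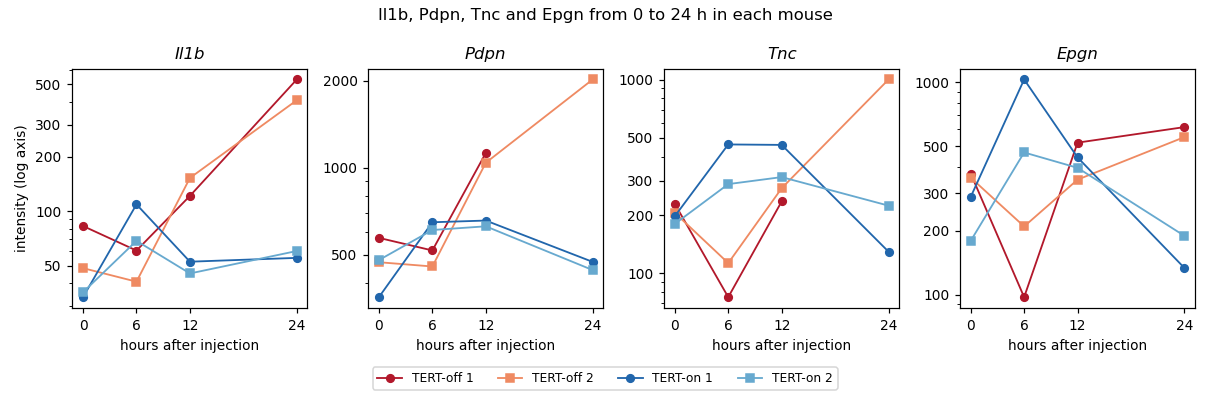
Intensity (log axis) of Il1b, Pdpn, Tnc and Epgn by hours from the injection, each line being 1 mouse; TERT-off replicate 1 has no value for Pdpn and Tnc at 24 h. At 6 h both TERT-off mice lie below both TERT-on mice in each panel, and at 24 h the measured TERT-off arrays lie above them.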

How the data were processed

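Skin RNA of 16 biopsies was hybridised to 1-colour Affymetrix mouse arrays of 45101 probe sets. The authors normalized the arrays to an invariant set and modelled each probe set from its perfect match and mismatch probes in dChip, and deposited linear intensities between 1 and 16736, with 1425 empty cells. Here 64 control probe sets were dropped, a floor of 7.72 (the table's 20th percentile) was set, which raised 0.298% of the values kept, and probe sets above 34.4 on at least 2 arrays were taken as log2. The limma package (version 3.58.1, with statmod 1.5.0, in R 4.3.3) fitted 8 group means over 16 arrays with the mouse as a random block (correlation 0.0728) and an intensity trend. Benjamini-Hochberg adjustment ran over 25563 probe sets, and each of 12580 genes was represented by its brightest probe set on average. Symbols came from the platform annotation, in which 34958 probe sets have 1, 932 several and 9211 none. With 2 arrays per group, the number of mice limits the precision, and an exact permutation test cannot go below p = 0.333.

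Of 931 genes in 44 lists, 809 were tested. The members and lists were chosen with earlier results of these data known. Genes were named by rule. The rule took a list of genes that the study names and the 15 largest positive and negative differences with 4 values. It added up to 3 passing members of each list (or the 2 with the smallest p). It also added up to 8 changes from 0 h in each cohort, and up to 5 genes in each direction for 6 h against later times. Some genes that the rule names are not reported here. Any other gene in the text was named after its values were seen. Probe sets of several genes were not named. The fit was tested on simulated data. Alternatives were the floor, an added value of 16, the filter, centring, quantile normalization, the blocks, the trend, the 6 h arrays only, the median over probe sets and leaving out each mouse. No deposited comparison columns were used.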

Additional observations from a re-analysis of the deposited data

Results flagged for a closer look

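The cohort difference of Il1b at 6 h, minus the mean of those at 12 and 24 h, was −3.04 (SE 0.35, limma adjusted p = 0.0257) and that of Pdpn −1.83 (SE 0.20, limma adjusted p = 0.0257). Both stand here because a test of the difference between time points passed. Neither gene passed at 6 h alone, where Il1b differed by −0.80 and Pdpn by −0.37.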

How the results depend on the processing

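The 219 genes at 6 h became 73 (43 higher, 30 lower) with no filter on dim probe sets, 130 with no intensity trend, 0 with the 6 h arrays only (1836 at an unadjusted p under 0.05), 100 without the 0 h array of TERT-on replicate 1, and 0 to 1872 with 1 mouse left out. Quantile normalization gave 110 higher and 77 lower. The 38 changes within TERT-off mice became 22 with no mouse block, 23 with no trend, 24 with the median over probe sets and 2 to 22 with 1 mouse left out. The 3 within TERT-on mice became 9 with no filter, 5 with no trend, 0 without that 0 h array and 0 to 9 with 1 mouse left out. The 0 differences of change became 6 with no filter and 0 to 4 with 1 mouse left out. The 2 genes of 6 h against later times became 9 with 16 added, 9 with no filter, 0 under quantile normalization (907 unadjusted), 0 with no trend (870 unadjusted), 12 with the median over probe sets and 0 to 12 with 1 mouse left out. The 5 genes at 0 h became 1 without that 0 h array and 1 to 139 with 1 mouse left out. The cause was not tested.

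The replicate numbers did not pair the mice: the correlation of same-numbered deviations was −0.12 at 6 h, −0.05 before the injection, and 0.11 and 0.085 at the 12 and 24 h times. With the replicate block 383 genes passed at 6 h, 5 within TERT-on mice and 5 against later times, and the crossed pairing gave 82, 11 within TERT-off mice and 0 against later times (819 unadjusted). The crossed block, the fits without the 0 h array other than for the difference of changes, and the 0 h fits without 1 mouse were chosen after seeing the data. None of 51 named genes that passed changed sign under any alternative. Of the others, 4 turned positive without TERT-off replicate 1, and with 1 mouse left out Cux1 at 6 h ranged between −1.94 and 0.56, Krt33b at 6 h between −8.00 and 0.12, Krt34 at 6 h between −8.59 and 0.045 and Lef1 at 6 h between −0.48 and 1.406e-05. Spon1 (−0.43) turned negative with the median over probe sets.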

Other observations

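Genes of the circulating and local renin-angiotensin and steroid systems were looked at after the values were seen. Hsd11b1, which regenerates active glucocorticoid, had intensities of 992 and 676 in the TERT-off mice, against 269 and 241 in the TERT-on mice at 6 h (difference 1.68, SE 0.25, limma adjusted p = 0.0231). Agt, angiotensinogen, read 159 and 86.9 in TERT-off, against 19.7 and 28.7 in TERT-on skin. In both the cohorts did not overlap, as was so for 52.5% of genes with a value on all 4 arrays. Ace, the angiotensin-converting enzyme, had a difference of 1.54 (SE 0.26, limma adjusted p = 0.0274). It already differed by 1.12 at 0 h, where it did not pass. Outside these systems, Ttr, the carrier of thyroxine and retinol-binding protein, read 99.9 and 56.2 in TERT-off, against 19.98 and 19.7 in TERT-on skin.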
